A study of Mus musculus with 298 samples.

Results

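The experiment described here is the early window of BCR-ABL induction in mouse blood. The same mice were bled 1 week and 3 weeks after tetracycline was withdrawn, and their change between the visits was set against the change in mice that stayed on the drug. Every mouse of the 3 Tet-off cohorts was taken, because the cohorts were handled alike until week 6. The comparison holds 34 libraries of 17 Tet-off mice and 6 libraries of 3 control mice, 40 of the 298 libraries of the series, and 20 libraries of week 2 from the same mice are used for the course between the visits. The Tet-off mice were 6 of the CML cohort, 4 of the TOTO cohort and 7 of the TKI cohort, 10 females and 7 males. The controls, labelled TET_ON_C, were 2 females and 1 male. All mice of both arms were SCLtTA/BCR-ABL animals on C57BL/6, carrying 1 copy each of the tetracycline-controlled transactivator (tTA+/-) and of the fusion gene (BCR-ABL+/-), and were 6 to 8 weeks old at the start. The controls therefore carry the same alleles as the Tet-off mice and differ from them in the drinking water, which held 0.5 g/L tetracycline. Withdrawal of the drug lets tTA switch the fusion gene on. TOTO mice went back on tetracycline and TKI mice received 50 mg/kg nilotinib, a BCR-ABL kinase inhibitor, only from week 6. The labels give a median survival of about 10 weeks after induction. Each mouse was 1 replicate, and the comparison rests on 3 control mice.

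BCR-ABL is the fusion kinase of chronic myeloid leukaemia (CML). In this model the SCL regulatory sequences drive tTA in blood stem and progenitor cells, so the fusion is made in those cells and reaches blood through their progeny. CML in mice and humans is known for overproduction of granulocytes. Neutrophils make their granules in sequence: primary granule enzymes such as myeloperoxidase in promyelocytes, secondary granule proteins such as lactoferrin, cathelicidin and neutrophilic granule protein in myelocytes and metamyelocytes, and surface receptors of mature cells last. Platelets carry RNA from the megakaryocytes that shed them, and megakaryocytes also arise from SCL-expressing cells.

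The labels call the samples peripheral blood mononuclear cells, while the extraction protocol names whole blood. Red cell RNA was abundant: haemoglobin transcripts made up 23.5% to 64.8% of TPM, a relative level per unit of transcript length, in Tet-off blood at week 3, median 45.0%, and 49.3%, 40.9% and 55.1% in control mice 488, 489 and 490. At week 1 they made up 21.1% to 71.3%, median 49.4%, in Tet-off blood, and 74.7%, 73.4% and 46.2% in the controls. Control mice 488 and 489 thus lost haemoglobin share between the visits, and control mouse 490 gained it. TPM values share a fixed sum, so a level is relative to all other transcripts of its library. The median step of all 10005 genes tested was 0.19 in Tet-off mice and 0.70 in controls, on the log2(TPM + 1) scale as deposited. A step is week 3 minus week 1 within a mouse throughout. The all-gene median step of single mice ran from −1.38 in CML mouse 541 to 1.67 in TOTO mouse 483, and was 1.56, 1.69 and −1.12 in control mice 488, 489 and 490. For this reason the main results are also given after rescaling the libraries to a common median ratio over 12847 genes present in all 40 libraries, which set the all-gene median step to 0.01 in Tet-off mice and 0.00 in controls. In bulk blood, fewer cells of a type and less RNA per cell cannot be told apart.

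**Figure D1:**
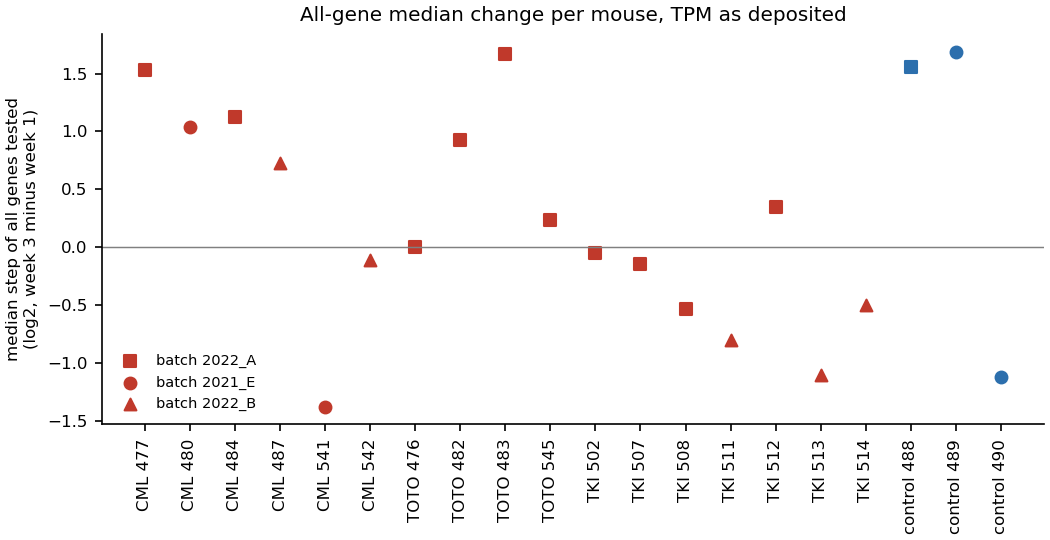
Median step over all genes tested (vertical axis, log2, values as deposited) for each mouse, with the Tet-off cohorts left of the controls. Colour gives the arm (red Tet-off, blue control) and marker shape the batch given by the labels. Tet-off mice run from −1.38 to 1.67, and the 3 controls sit at 1.56, 1.69 and −1.12.

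The transgene was read first. The human BCR-ABL1 row held 0 to 5.36 TPM in Tet-off blood at week 3, median 1.22 TPM, with 6 of 17 mice at 0, and 0.588, 0 and 0 TPM in control mice 488, 489 and 490. At week 1 it held 0 to 2.14 TPM, median 0.371 TPM, with 7 of 17 Tet-off mice at 0, and 0 TPM in all 3 controls. The fusion row was therefore low at both visits. The mouse labelled CML 487 was at 0 at both, with human ABL1 at 0.00917 TPM at week 1 and 0.0222 TPM at week 3, within the range of the controls, so its libraries go against the label and results are also given without it. The step averaged 0.46 ± 0.97 in Tet-off mice (SD, n = 17), higher in 11, lower in 4 and equal in 2, against 0.22 ± 0.39 in controls (SD, n = 3). It did not pass a two-sided exact sign-flip test (p = 0.0721), and the difference between arms did not pass a two-sided exact permutation test (difference 0.24, p = 0.701, where 1140 relabellings allow no p below 0.000877). Rescaled, the step averaged 0.32 in Tet-off mice and 0.12 in controls (exact sign-flip p = 0.131). Without the mouse labelled CML 487 the deposited step was 0.49. The step of that mouse was 0, so leaving it out could not change the exact sign-flip p of 0.0721. Leaving out TKI mouse 512 gave a step of 0.59 (exact sign-flip p = 0.0149). Without TKI mouse 502 the step was 0.55 (exact p = 0.0359), and without CML mouse 541 it was 0.52 (exact p = 0.0498). In each of these mice the fusion row fell to 0 TPM at week 3, so leaving out that mouse could only raise the mean. Across all single mice left out, the step ran from 0.39 to 0.59. The mean step was −0.07 in the 2 Tet-off mice labelled batch 2021_E, 0.64 in the 10 of batch 2022_A and 0.30 in the 5 of batch 2022_B. The rows for the separate human genes were higher at week 3 in more mice than the fusion row. Human BCR had a step of 0.42 ± 0.49 in Tet-off mice (SD, n = 17), higher in 15 of 17, exact sign-flip p = 0.000565. Its control step was −0.01 ± 0.06 (SD, n = 3), and the arms differed by 0.43, exact permutation p = 0.136. Human ABL1 held 0.0222 to 7.75 TPM at week 3, median 1.39 TPM, in Tet-off blood, and 0.0259, 0 and 0.0305 TPM in the controls. At week 1 it held 0.00917 to 1.52 TPM, median 0.594 TPM, in Tet-off blood, and 0.022, 0 and 0.074 TPM in the controls. Its step was 0.62 ± 0.77 in Tet-off mice (SD, n = 17), higher in 12 of 17, exact sign-flip p = 0.00252, and −0.02 ± 0.04 in controls (SD, n = 3); the arms differed by 0.64, exact permutation p = 0.175. Across all genes, limma gave this step an adjusted p of 0.249 as deposited and 0.00588 after rescaling (step 0.58 ± 0.15, SE). Reads from the human ABL1 part of the fusion and from mouse Abl1 may be shared between rows, which was not tested. Mouse Bcr had a step of −0.48 ± 0.18 (SE, adjusted p = 0.236) and mouse Abl1 of 0.27 ± 0.29 (SE, adjusted p = 0.692) as deposited. Rescaled, Bcr fell by 0.69 (adjusted p = 0.00115), lower in 15 of 17 Tet-off mice, with control steps of −1.05, −1.32 and 0.69, and Abl1 had a step of 0.07 (adjusted p = 0.339).

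The neutrophil and platelet genes led the changes. Between week 1 and week 3 the values as deposited changed in Tet-off mice for 285 of 10005 genes (2.85%) at limma's Benjamini-Hochberg adjusted p below 0.05, of which 15 rose (0.15%) and 270 fell (2.7%). The 15 that rose include 5 neutrophil secondary granule genes, and the 270 that fell include 16 genes of the platelet list. After rescaling, 4095 genes passed (40.9%), 2108 of them higher (21.1%) and 1987 lower (19.9%), so the share of higher calls was 5.26% as deposited and 51.5% rescaled. Called on both scales in the same direction were 274 genes, 13 higher and 261 lower, and no gene was called in opposite directions (0). Without the mouse labelled CML 487, 323 genes passed as deposited, 16 higher and 307 lower, and 3967 rescaled, 2049 higher and 1918 lower. The count as deposited rests in part on single mice: it was 436 without CML mouse 477, and 172, 173, 178, 175, 185 and 183 without TOTO mouse 476, CML mice 480 and 484, and TKI mice 508, 511 and 514. The control step passed for 0 genes on both scales in limma (48 genes, 0.48%, at an unadjusted p below 0.05 as deposited, and 672 genes, 6.72%, rescaled), and for 7227 genes as deposited without control mouse 490, with 2 controls left. The Tet-off step differed from the control step for 0 genes on both scales in limma, with 285 genes (2.85%) at an unadjusted p below 0.05 as deposited and 410 genes (4.1%) rescaled, and smallest adjusted p-values of 0.708 and 0.188. No change below is therefore shown to differ from that of mice kept on tetracycline, and no similarity is shown either, since 3 control mice that moved apart from each other leave wide errors. The control step had the same sign as the called Tet-off step for 35 of 285 genes as deposited. Rescaled, this held for 3557 of 4095 genes, 1804 of them higher and 1753 lower. Control steps are given beside the leading genes and, for the lists, as medians.

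The secondary granule genes lead the rise as deposited. Their promoter sequences are shown because 5 of them, Ngp, Ltf, Camp, Chil3 and Cd177, are the list members that rose on both scales. Ngp encodes neutrophilic granule protein, a cystatin-like granule component. Ltf encodes lactoferrin, which binds iron. Camp encodes the cathelicidin precursor, an antimicrobial peptide. Chil3 encodes a chitinase-like lectin made by myeloid cells. Cd177 encodes a neutrophil surface and granule glycoprotein. In mice and humans the transcription factor C/EBP-epsilon is needed for secondary granule genes, and STAT5 is a signalling target of BCR-ABL, so the 250 bases before each start were searched for a C/EBP motif and a STAT motif. In the lines that follow, taken from RefSeq on GRCm38.p6 and written 5′ to 3′ on the gene's own strand, capitals mark a match to either motif.
Ngp: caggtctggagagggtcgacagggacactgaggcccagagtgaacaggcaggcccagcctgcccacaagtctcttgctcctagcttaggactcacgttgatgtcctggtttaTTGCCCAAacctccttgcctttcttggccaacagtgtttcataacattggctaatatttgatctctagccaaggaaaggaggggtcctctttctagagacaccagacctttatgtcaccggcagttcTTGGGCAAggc
Camp: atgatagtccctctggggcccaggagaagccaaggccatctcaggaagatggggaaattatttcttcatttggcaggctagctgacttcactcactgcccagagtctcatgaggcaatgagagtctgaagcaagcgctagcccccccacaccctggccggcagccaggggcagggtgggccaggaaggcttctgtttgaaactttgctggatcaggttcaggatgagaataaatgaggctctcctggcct
Ltf: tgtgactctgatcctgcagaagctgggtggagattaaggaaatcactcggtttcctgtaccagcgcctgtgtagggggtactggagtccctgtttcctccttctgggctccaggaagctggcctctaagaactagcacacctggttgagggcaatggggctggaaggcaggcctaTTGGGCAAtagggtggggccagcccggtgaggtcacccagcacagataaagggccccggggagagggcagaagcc
Chil3: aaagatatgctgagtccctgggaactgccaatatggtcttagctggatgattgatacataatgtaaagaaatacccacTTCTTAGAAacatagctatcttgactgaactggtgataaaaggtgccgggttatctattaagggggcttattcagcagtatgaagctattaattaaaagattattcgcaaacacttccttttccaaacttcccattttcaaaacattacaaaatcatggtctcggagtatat
Cd177: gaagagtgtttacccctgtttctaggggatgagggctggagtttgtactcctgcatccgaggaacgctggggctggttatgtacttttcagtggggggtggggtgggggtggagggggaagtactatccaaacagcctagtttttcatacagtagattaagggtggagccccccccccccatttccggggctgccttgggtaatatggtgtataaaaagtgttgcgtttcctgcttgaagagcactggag

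These windows lie at chr9:110419558-110419807 on the plus strand for Ngp, chr9:109849457-109849706 on the minus strand for Camp, chr9:111019042-111019291 on the plus strand for Ltf, chr3:106167565-106167814 on the minus strand for Chil3 and chr7:24760312-24760561 on the minus strand for Cd177. Ngp, Camp and Ltf thus share chromosome 9. The C/EBP motif was TTNNGCAA, read on both strands, and the STAT motif was TTCNNNGAA, whose pattern is its own reverse complement. Ngp holds 2 C/EBP matches, TTGCCCAA at 138 to 131 bases and TTGGGCAA at 11 to 4 bases before the start. Ltf holds 1 match, TTGGGCAA, at 75 to 68 bases, and Chil3 holds 1 STAT match, TTCTTAGAA, at 172 to 164 bases. No match was found for either motif in the windows of Camp and Cd177, which says only that these letters are not there. Of the 17 secondary granule genes tested, 15 were matched to the promoter table with 16 windows; 5 of these windows (31.2%) held the C/EBP motif and 1 (6.25%) the STAT motif, against 9.56% and 7.02% of all 32851 windows of that length.

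Ngp (ENSMUSG00000032484.9, GRCm39 chr9:110248815-110252086) had 0.732 to 299 TPM in Tet-off blood at week 3, median 60.9 TPM, and 1.28, 0.972 and 0.0791 TPM in control mice 488, 489 and 490. Its week 1 values were 0.295 to 62.2 TPM, median 11.9 TPM, in Tet-off blood, and 0.329, 0.079 and 1.22 TPM in the controls. The median Tet-off mouse was far above the controls at both visits, and the mouse labelled CML 487 was the one Tet-off mouse within the control range, at 0.295 TPM at week 1 and 0.732 TPM at week 3. The Ngp step was 2.01 ± 0.42 as deposited (SE, adjusted p = 0.00617), higher in 16 of 17 mice, and 1.82 ± 0.30 rescaled (SE, adjusted p = 0.00018), higher in 17 of 17. In control mice 488, 489 and 490 the rescaled Ngp step was −0.10, 0.28 and −0.54, and 16 of 17 Tet-off mice lay above the highest of these. The rescaled difference between arms was 1.94 ± 0.77 (SE, adjusted p = 1). Without the mouse labelled CML 487, which had the lowest rescaled step (0.04), the deposited step was 2.11 (adjusted p = 0.0052). The highest rescaled step, 3.03, belonged to CML mouse 477.

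Ltf (ENSMUSG00000032496.8, chr9:110848339-110871835) had 0.893 to 121 TPM, median 31.2 TPM, in Tet-off blood at week 3, and 4.26, 2.72 and 0.477 TPM in the controls. The week 1 range was 0.847 to 21.9 TPM, median 5.45 TPM, in Tet-off blood, and 0.349, 0.208 and 1.42 TPM in the controls. Lactoferrin RNA was higher at week 3 in control mice 488 and 489 as well, at a lower level. The Ltf step was 2.01 ± 0.42 as deposited (SE, adjusted p = 0.00598) and 1.80 ± 0.35 rescaled (SE, adjusted p = 0.000621). The rescaled control steps were 0.79, 0.58 and −0.02, with 14 of 17 Tet-off mice above the highest. The deposited step was 2.08 (adjusted p = 0.00561) when the mouse labelled CML 487 was left out.

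Camp (ENSMUSG00000038357.11, chr9:109676442-109678685) had 0.129 to 58.8 TPM, median 14.3 TPM, in Tet-off blood at week 3, and 0.273, 0.0451 and 0.0571 TPM in the controls. In week 1 the range was 0.0422 to 12.5 TPM, median 2.45 TPM, in Tet-off blood, and 0, 0.0238 and 0.304 TPM in the controls. Cathelicidin RNA stayed below 1 TPM in every control library of both visits. The Camp step was 1.79 ± 0.38 as deposited (SE, adjusted p = 0.00774) and 1.61 ± 0.24 rescaled (SE, adjusted p = 8.68e-05). The rescaled control steps were 0.18, −0.05 and −0.09, and 15 of 17 Tet-off mice lay above the highest. Without the mouse labelled CML 487 the deposited steps were 1.89 for Camp (adjusted p = 0.00561), 1.82 for Chil3 (adjusted p = 0.0205) and 1.44 for Cd177 (adjusted p = 0.0434). Chil3 (ENSMUSG00000040809.11, chr3:106054870-106074880) had 1.30 to 797 TPM, median 92.4 TPM, in Tet-off blood at week 3, and 8.71, 20.2 and 8.09 TPM in the controls, with 0.517 to 146 TPM, median 26.6 TPM, and 2.23, 2.51 and 15.4 TPM at week 1. Its step was 1.75 ± 0.44 as deposited (SE, adjusted p = 0.0211) and 1.56 ± 0.25 rescaled (SE, adjusted p = 0.000148). Chil3 was the most abundant of the 4 at its median, and its deposited call ended on leaving out CML mouse 484 (1.66, adjusted p = 0.051) or with batch as a term (1.33, adjusted p = 0.139). Cd177 passed as deposited at the threshold, with a step of 1.36 ± 0.39 (SE, adjusted p = 0.0498), a call that ended on leaving out any of 16 of the 20 mice, and rose by 1.19 ± 0.17 rescaled (SE, adjusted p = 5.63e-05), with rescaled control steps of 0.39, 1.02 and 0.18.

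Of 18 secondary granule genes listed, 17 passed the filter of a mean of 1 TPM; 5 rose and 0 fell as deposited, and 17 rose after rescaling, beside the 0.15% and 21.1% of all genes tested that rose. The median step of the list was 1.06 as deposited and 0.87 rescaled in Tet-off mice, against 1.11 and 0.45 in controls, where the median of all genes was 0.19 and 0.01 in Tet-off mice and 0.70 and 0.00 in controls. The list median was therefore no larger than in the controls as deposited. By gene, 9 of the 17 moved further than in controls as deposited, and 16 of the 17 did after rescaling. By mouse, the rescaled list median ran from −0.24 to 2.13 with a middle value of 0.79, above 0 in 15 of 17 Tet-off mice, and was 0.34, 0.58 and 0.11 in the controls. The 2 Tet-off mice not above 0 were CML mouse 542 and the mouse labelled CML 487, without which the rescaled list median was 0.95. Within batches the rescaled list median was 0.78 in Tet-off mice and 0.46 in controls of batch 2021_E, 1.21 and 0.34 in batch 2022_A. It was 0.30 in Tet-off mice of batch 2022_B, which held no control. Lcn2, the siderophore-binding neutrophil lipocalin, did not pass as deposited (1.29 ± 0.44, SE, adjusted p = 0.141) and rose by 1.08 ± 0.22 rescaled (SE, adjusted p = 0.000895). Retnlg, a resistin-like neutrophil secreted protein, had a step of 1.33 ± 0.41 as deposited (SE, adjusted p = 0.085) and rose by 1.11 ± 0.16 rescaled (SE, adjusted p = 8.68e-05), with 10 of 17 Tet-off mice above the highest control.

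**Figure D2:**
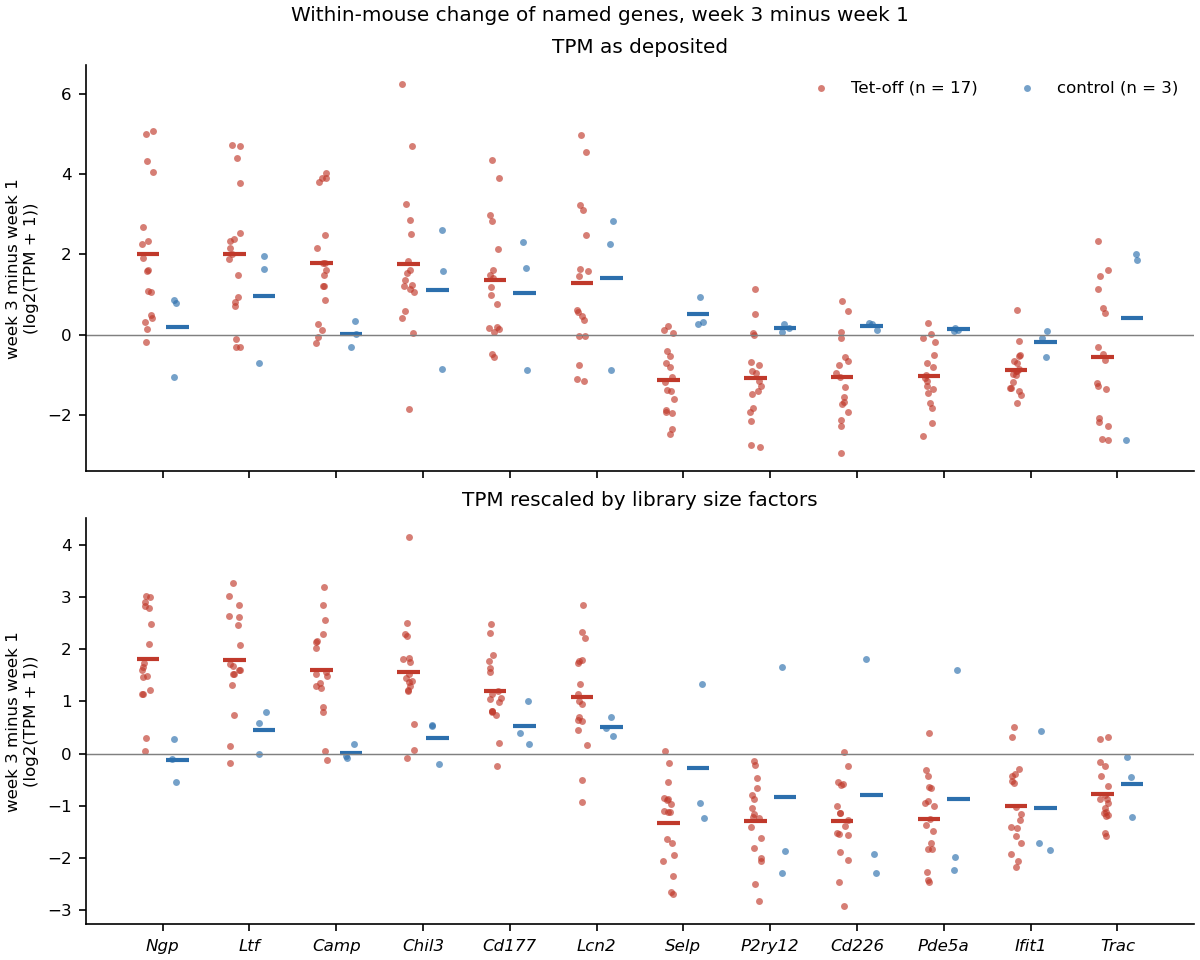
Step from week 1 to week 3 (log2 of TPM + 1) of single mice for granule, platelet, interferon and T cell genes, with Tet-off mice left of control mice for each gene, as deposited (upper panel) and rescaled (lower panel); points are mice and horizontal bars group means. For Ngp, 16 of 17 Tet-off mice lie above the highest control after rescaling; for Selp, all 17 lie below the lowest control as deposited and 7 after rescaling.

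Later and earlier neutrophil genes bracket the granule genes. Of 20 mature neutrophil genes tested, 0 passed as deposited and 15 rose rescaled, where 21.1% of all genes rose, with a rescaled list median of 0.48 in Tet-off mice (0.52 without the mouse labelled CML 487) and 0.37 in controls. Mmp25, a leukocyte membrane-bound metalloproteinase, rose by 0.77 ± 0.13 rescaled (SE, adjusted p = 0.000229), with 13 of 17 Tet-off mice above the highest control, and Ly6g, the granulocyte surface marker of mice, by 0.72 ± 0.15 (SE, adjusted p = 0.00128). The stefin and resistin-like list had 4 members tested, of which Chil3 rose as deposited and 4 rose rescaled; Stfa2l1, a stefin A family protease inhibitor, rose by 1.00 ± 0.20 rescaled (SE, adjusted p = 0.000956). Of 6 primary granule and precursor genes tested, 0 passed as deposited and 4 rose rescaled, with list medians of 0.31 in Tet-off mice and 0.08 in controls. Cebpe, which encodes C/EBP-epsilon, rose by 0.58 ± 0.08 rescaled (SE, adjusted p = 4.09e-05), and 16 of 17 Tet-off mice lay above controls, whose steps were 0.13, 0.12 and 0.10. Its level was low: at week 3 the rescaled values were 0.0185 to 2.83 TPM, median 1.40 TPM, in Tet-off blood, and 0.332, 0.432 and 0.319 TPM in the controls. Ctsc, the protease that activates granule serine proteases, rose by 0.27 ± 0.07 rescaled (SE, adjusted p = 0.00461). The defining primary granule markers were near 0: Mpo reached at most 0.623 TPM and Elane at most 1.40 TPM in Tet-off blood at week 3, and Elane was at 0 in all 3 controls. Saa3, an acute-phase serum amyloid, did not pass as deposited and rose by 0.57 ± 0.15 rescaled (SE, adjusted p = 0.00562), while its rescaled control steps were 0.03, 0.03 and −1.83. Il1r2, the decoy receptor for interleukin 1 on neutrophils, rose by 0.65 ± 0.24 rescaled (SE, adjusted p = 0.0355). Snord17, a small nucleolar RNA, passed as deposited (1.33 ± 0.36, SE, adjusted p = 0.0332), but its control steps of 3.04, 3.21 and −0.11 were larger in 2 of 3 controls than in any Tet-off mouse. The deposited Snord17 call ended on leaving out any of 11 mice (highest adjusted p = 0.076), with batch as a term (adjusted p = 0.105) and with pseudocount 0.1 (adjusted p = 0.0812). Rescaled it rose by 1.11 (adjusted p = 0.000206), with control steps of 0.87, 0.81 and 1.42.

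The fall was led by platelet and megakaryocyte genes. Of 20 tested, 16 fell and 0 rose as deposited, beside 2.7% of all genes that fell, and 20 fell rescaled, beside 19.9%. The list median as deposited was −0.71 in Tet-off mice and 0.27 in controls; rescaled it was −0.93 in Tet-off mice and −0.72 in controls. The Tet-off medians were −0.75 and −0.91 when the mouse labelled CML 487 was left out. The summed level of the list was 2453 to 16937 TPM, median 5750 TPM, in Tet-off blood at week 3, and 2829, 3353 and 3051 TPM in the controls. Its week 1 sum was 2503 to 22478 TPM, median 10805 TPM, in Tet-off blood, and 2441, 2880 and 2576 TPM in the controls. As deposited, Tet-off blood therefore carried more platelet RNA than control blood at week 1 at its median. On that scale the fall brought the median closer to the controls' level. These sums are not rescaled, and rescaled the controls moved too, by −1.84, −2.0 and 1.67 in mice 488, 489 and 490. Before induction, at week 0, the Tet-off sum was 1237 to 10641 TPM, median 4110 TPM.

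Selp (ENSMUSG00000026580.17, GRCm39 chr1:163942833-163977595) encodes P-selectin, the adhesion receptor stored in platelet alpha granules. It had 2.54 to 42.7 TPM, median 20 TPM, in Tet-off blood at week 3, and 2.73, 5.14 and 3.14 TPM in the controls. The week 1 levels were 2.27 to 115 TPM, median 41.0 TPM, in Tet-off blood, and 1.98, 2.23 and 2.43 TPM in the controls. Control values lay at or near the bottom of the Tet-off range at both visits, and that bottom was the mouse labelled CML 487. The next lowest Tet-off values were 16.0 TPM at week 1 (CML mouse 542) and 5.18 TPM at week 3 (CML mouse 541). These lay above every control. The Selp step was −1.13 ± 0.18 as deposited (SE, adjusted p = 0.00111), lower in 14 of 17 Tet-off mice, all 17 of them below the control steps of 0.32, 0.93 and 0.27. Rescaled it was −1.34 ± 0.30 (SE, adjusted p = 0.00179), and the control steps were −1.23, −0.96 and 1.34, with 7 of 17 Tet-off mice below the lowest. The difference between arms was −1.64 ± 0.47 as deposited (SE, adjusted p = 0.708) and −1.05 ± 0.77 rescaled (SE, adjusted p = 1). Leaving out the mouse labelled CML 487 gave a deposited step of −1.21 (adjusted p = 0.000411). Within batches the Tet-off mean step as deposited was −1.67 in 2021_E, −0.91 in 2022_A and −1.36 in 2022_B.

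P2ry12 (ENSMUSG00000036353.14, chr3:59123682-59170429), the ADP receptor that sustains platelet aggregation, had 15.5 to 129 TPM, median 34.0 TPM, in Tet-off blood at week 3, and 32.8, 45.8 and 38.2 TPM in the controls. Week 1 levels were 28.8 to 131 TPM, median 89.8 TPM, in Tet-off blood, and 27.1, 43.5 and 33.9 TPM in the controls. Its step was −1.08 ± 0.21 as deposited (SE, adjusted p = 0.00546), with 15 of 17 mice below the lowest control. Cd226, an adhesion receptor of platelets and lymphocytes, had 42.9 to 368 TPM, median 114 TPM, in Tet-off blood at week 3, and 125, 147 and 119 TPM in the controls. A week after withdrawal it had 110 to 465 TPM, median 245 TPM, in Tet-off blood, and 104, 136 and 96.5 TPM in the controls. Its level fell by 1.06 as deposited (adjusted p = 0.00481 in limma). Pde5a, the cGMP phosphodiesterase, fell by 1.03 (adjusted p = 0.00173), Ctla2b, a cysteine protease inhibitor-like gene, by 1.01 (adjusted p = 0.00328), and Sytl4, a granule-docking synaptotagmin-like protein, by 0.99 (adjusted p = 0.00179) as deposited. As deposited all 17 Tet-off mice lay below the lowest control for Sytl4, and 16 of 17 for Pde5a; rescaled, 3 of 17 did for each of these and 2 of 17 for P2ry12, whose rescaled control steps were −1.87, −2.30 and 1.66. The rescaled Tet-off falls were 1.30 for P2ry12 (adjusted p = 0.00538), 1.29 for Cd226 (adjusted p = 0.00534), 1.25 for Pde5a (adjusted p = 0.005), 1.24 for Ctla2b (adjusted p = 0.00625) and 1.20 for Sytl4 (adjusted p = 0.00325). Among falls of list members as deposited were Rgs18 (−0.98), a regulator of G protein signalling in platelets, Gng11 (−0.92), a G protein subunit, P2rx1 (−0.82), the ATP-gated channel, and Vwf (−0.81, adjusted p = 0.00546), von Willebrand factor. Ppbp (−0.89) and Pf4 (−0.78), both alpha granule chemokines, and Itga2b (−0.66) and Gp9 (−0.66), parts of the fibrinogen and von Willebrand receptors, also fell. The histone gene H2bc4 (−0.99) and Lgalsl (−0.93), a galectin-like gene, fell as far. Itga2, the collagen receptor subunit counted here among basophil and mast cell genes, fell by 0.78 (adjusted p = 0.0173), and F13a1, the factor XIII subunit listed among monocyte genes, fell by 0.74 (adjusted p = 0.0158); platelets are known to carry both.

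The scale decides what the controls show for these genes. As deposited the control platelet medians were 0.32, 0.36 and 0.19 in mice 488, 489 and 490, and rescaled they were −1.84, −2.0 and 1.67. Control mice 488 and 489 thus had more negative medians than the median Tet-off mouse after rescaling, and mouse 490 had a positive one. Within batches the deposited list median was −1.24 in Tet-off mice and 0.28 in controls of batch 2021_E, −0.53 and 0.32 in batch 2022_A, and −0.87 in Tet-off mice of batch 2022_B; rescaled it was −0.97 and −0.16, −1.21 and −1.84, and −0.37.

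**Figure D3:**
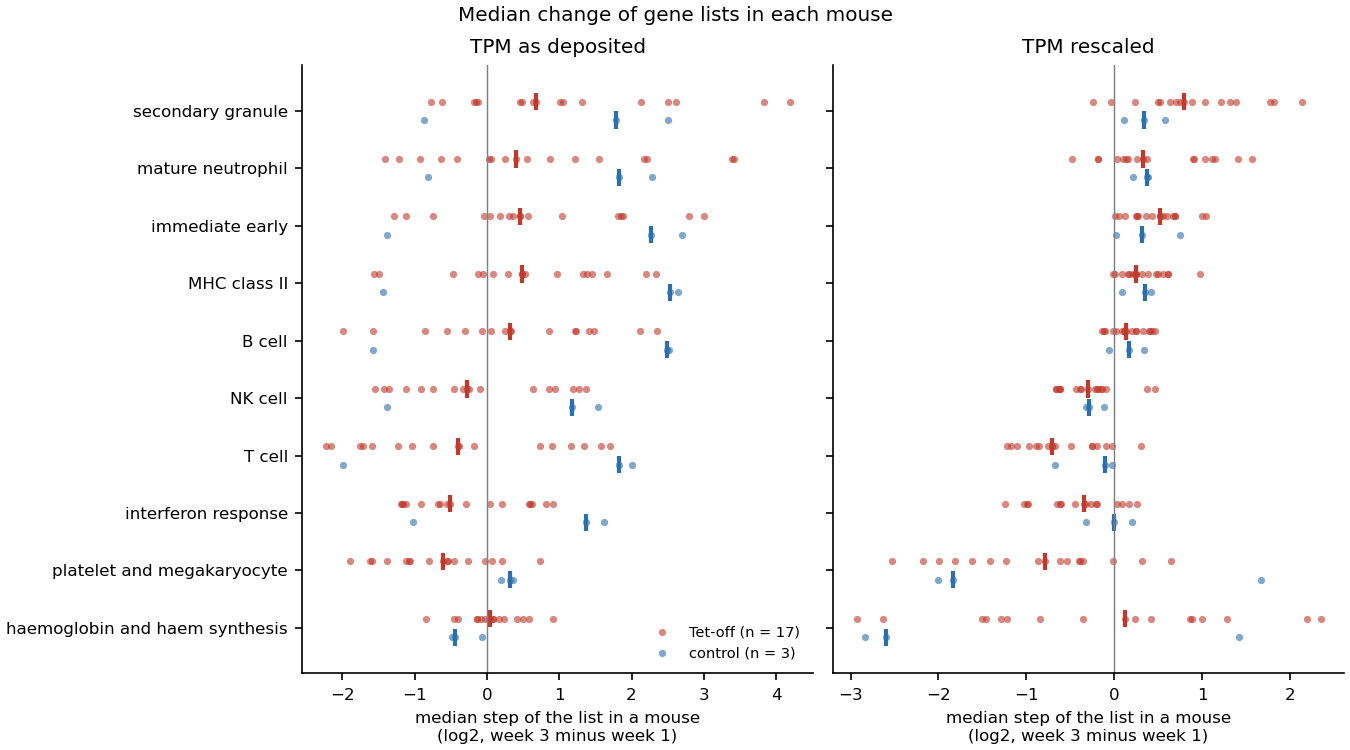
Median step over the genes of each list (horizontal axis, log2) in single mice, with Tet-off mice above control mice, as deposited and rescaled; points are mice and vertical bars the median over mice. Secondary granule genes rescaled have a middle value of 0.79 in Tet-off mice, with controls at 0.34, 0.58 and 0.11, and the control platelet medians are 0.32, 0.36 and 0.19 as deposited but −1.84, −2.0 and 1.67 rescaled.

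Lymphocyte genes moved by class. For reading the rescaled counts, 21.1% of all genes rose and 19.9% fell. Of 20 T cell genes tested, 0 passed as deposited and 20 fell rescaled, with a rescaled list median of −0.61 in Tet-off mice (−0.67 without the mouse labelled CML 487) and −0.28 in controls, where mice 488, 489 and 490 had −0.03, −0.10 and −0.67. Cd28, the costimulatory receptor of T cells, had rescaled levels of 1.44 to 6.88 TPM, median 2.04 TPM, in Tet-off blood at week 3 and 3.23 to 7.03 TPM, median 4.64 TPM, at week 1. Controls had 2.46, 3.30 and 1.39 TPM at week 3 and 3.49, 4.40 and 1.67 TPM at week 1. The rescaled Cd28 step was −0.77 ± 0.11 (SE, adjusted p = 4.09e-05), lower in 16 of 17 Tet-off mice, of which 15 lay below all control steps (−0.36, −0.32 and −0.14). The difference between arms was −0.50 ± 0.27 rescaled (SE, adjusted p = 1). Trac, the T cell receptor alpha constant gene, fell by 0.77 (adjusted p = 0.000469) and Lef1, a transcription factor of naive T cells, by 0.83 (adjusted p = 0.000424), both rescaled. Control steps were −0.07, −0.46 and −1.22 for Trac and 0.13, −0.03 and −0.97 for Lef1, so mouse 490 lay below the Tet-off mean for both. By cohort the rescaled Trac step averaged −0.52 in CML, −0.38 in TOTO and −1.22 in TKI mice, and Lef1 −0.41, −0.49 and −1.38. Both falls were thus largest in TKI mice, but limma's F test between cohorts did not pass (adjusted p = 0.302 and 0.199). The Cd28 means were −0.84, −0.75 and −0.73. The one Tet-off mouse with a higher rescaled Cd28 and Lef1 level at week 3 was the mouse labelled CML 487, which also had the lowest Ngp step. Of 16 natural killer (NK) cell genes, 15 fell rescaled and 0 passed as deposited, with medians of −0.29 in Tet-off mice and −0.25 in controls; Klrd1, the CD94 chain of NK receptors, fell by 0.46 (adjusted p = 0.00322) and Klra9, a Ly49 receptor, by 0.35 (adjusted p = 0.00725). Of 20 B cell genes, 11 rose and 2 fell rescaled and 0 passed as deposited, with medians of 0.19 in Tet-off mice and 0.15 in controls. Ms4a1, which encodes CD20, rose by 0.35 ± 0.10 rescaled (SE, adjusted p = 0.00727), with 14 of 17 Tet-off mice above the highest control, and Cd22, an inhibitory B cell receptor, by 0.32 ± 0.07 (SE, adjusted p = 0.00153). The summed T cell level as deposited was 29.0 to 371 TPM, median 133 TPM, in Tet-off blood at week 3, and 399, 569 and 72.4 TPM in the controls. For week 1 the sum was 79.5 to 352 TPM, median 175 TPM, in Tet-off blood, and 90.6, 119 and 335 TPM in the controls.

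Interferon response genes included 2 falls as deposited among 19 tested, beside 2.7% of all genes, and 10 falls with 1 rise rescaled, beside 19.9% and 21.1%. Ifit1, an antiviral protein of the interferon response, had 1.13 to 5.30 TPM, median 1.84 TPM, in Tet-off blood at week 3, and 3.94, 3.11 and 1.43 TPM in the controls. In week 1 its levels were 2.62 to 8.32 TPM, median 4.16 TPM, in Tet-off blood, and 4.24, 2.83 and 2.58 TPM in the controls. Ifit1 was lower in 16 of 17 Tet-off mice and its step was −0.88 ± 0.15 as deposited (SE, adjusted p = 0.00173), against control steps of −0.09, 0.10 and −0.56. Rescaled the step was −1.01 ± 0.24 in Tet-off mice (SE, adjusted p = 0.00265), and control steps were −1.86, −1.72 and 0.43. Its relative Ifit2 fell by 0.80 (adjusted p = 0.00891) as deposited and by 1.00 (adjusted p = 0.000637) rescaled. Ifit3 did not pass as deposited and fell by 0.72 ± 0.11 rescaled (SE, adjusted p = 9.19e-05), lower in 17 of 17 Tet-off mice, 15 of them below the control steps of −0.04, −0.13 and −0.20. Irf7, the interferon regulatory factor, fell by 0.71 rescaled (adjusted p = 0.0481), while the rescaled control steps were −2.0, −1.51 and 0.60. Within batches the rescaled Irf7 step averaged 0.62 in Tet-off mice of 2021_E, −1.36 in 2022_A and 0.06 in 2022_B. With the mouse labelled CML 487 left out, the deposited Ifit1 step was −0.97 (adjusted p = 0.000255), and Irf7 passed as deposited (−0.58, adjusted p = 0.0406). The rescaled list median was −0.40 in Tet-off mice and −0.08 in controls, and within batches it was 0.08 and −0.01 in 2021_E, −0.69 and −0.32 in 2022_A, and 0.02 in Tet-off mice of 2022_B.

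Signalling and housekeeping lists showed no call as deposited beyond single genes, and their rescaled counts stand beside 21.1% of all genes that rose and 19.9% that fell. Of 16 immediate early genes, the fast targets of growth factor and stress signalling, 0 passed as deposited and 14 rose rescaled, with medians of 0.47 in Tet-off mice and 0.35 in controls. Junb, an AP-1 subunit, rose by 0.71 ± 0.09 rescaled (SE, adjusted p = 2.32e-05) in 17 of 17 Tet-off mice, while control steps were 0.63, 0.84 and −0.16, and Egr1 rose by 0.58 (adjusted p = 0.0049), with control steps of 0.35, 0.60 and −0.67. Of 10 STAT5 targets tested, 4 rose rescaled, with medians of 0.19 in Tet-off mice and −0.01 in controls. Osm, the cytokine oncostatin M, rose by 0.44 (adjusted p = 0.0139), and the kinase gene Pim1 had a rescaled step of 0.30 ± 0.13 (SE, adjusted p = 0.0657), with control steps of −1.12, −0.86 and 0.14. Of 15 BCL2 family genes 6 rose rescaled, among them the survival factor Mcl1 (0.44 ± 0.07, SE, adjusted p = 9.75e-05, with control steps of 0.38, 0.61 and 0.20), and of 16 interleukin 1 and inflammasome genes 9 rose. Of 10 major histocompatibility complex (MHC) class II genes 8 rose rescaled, with medians of 0.35 in Tet-off mice and 0.27 in controls; H2-Aa rose by 0.39 (adjusted p = 0.000143) and H2-Eb1 by 0.40 (adjusted p = 0.000365), where control steps were 0.45, 0.22 and 0.11 for H2-Aa and 0.50, 0.37 and −0.01 for H2-Eb1. Of 16 monocyte genes, F13a1 fell as deposited, and 8 rose and 2 fell rescaled, with medians of 0.23 in Tet-off mice and 0.31 in controls. Of 7 basophil and mast cell genes tested, Itga2 fell as deposited and 2 fell rescaled. Of 3 dendritic cell genes, 1 rose and 1 fell rescaled. Of 19 glycolysis genes Hk1, the widely expressed hexokinase, fell as deposited (−0.67, adjusted p = 0.0253), and 4 rose and 9 fell rescaled, the risers including Hk3, the myeloid hexokinase (0.54, adjusted p = 0.00415). The deposited Hk1 call ended on leaving out any of 7 mice (highest adjusted p = 0.068), with pseudocount 0.1 (adjusted p = 0.0582) and with no replicate block (adjusted p = 0.128), and rescaled Hk1 fell by 0.89 (adjusted p = 0.00273). Of 15 cholesterol genes 8 rose and 2 fell rescaled. Of 40 ribosomal protein genes 21 rose rescaled, with medians of 0.15 in Tet-off mice and 0.09 in controls. Of 19 unfolded protein response genes 4 rose and 5 fell rescaled. Of 13 cell cycle genes and 13 mitochondrially encoded genes, 0 passed on either scale in limma. Of 12 haemoglobin and haem synthesis genes 1 rose rescaled, with medians of −0.19 in Tet-off mice and −1.33 in controls, and of 17 red cell membrane and erythroid genes 2 fell.

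Week 2 shows that the step from week 1 to week 3 is not a straight course. Among 10471 genes tested as deposited, 8135 rose (77.7%) and 154 fell (1.47%) in Tet-off mice from week 1 to week 2, and among 10749 genes 159 rose (1.48%) and 5594 fell (52.0%) from week 2 to week 3, while 0 genes passed in limma in the controls for either interval. The unadjusted count was 3020 in the controls for the first interval and 55 for the next. Haemoglobin made up 6.45% to 48.5% of TPM, median 23.2%, in Tet-off blood at week 2, and 58.8%, 64.6% and 43.8% in control mice 488, 489 and 490, so the Tet-off median was lower at week 2 than at either neighbour. Rescaled, 2287 genes rose (21.8%) and 2163 fell (20.7%) to week 2 and 1348 rose (12.5%) and 1547 fell (14.4%) after it.

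Neutrophil lists rose to week 2 at their rescaled medians, and single genes differed after it. The summed secondary granule level was 240 to 6398 TPM, median 2443 TPM, in Tet-off blood at week 2, against 242, 190 and 256 TPM in the controls. At week 3 it was 68.0 to 4408 TPM, median 909 TPM, in Tet-off blood, against 367, 424 and 120 TPM, and at week 1 it was 36.2 to 1478 TPM, median 339 TPM, against 52.4, 48.1 and 243 TPM. With values rescaled over weeks 1 to 3, the list median moved by 1.25 to week 2 and by −0.42 after it in Tet-off mice, against 0.08 and 0.30 in controls; 17 of 17 genes were higher at week 2 than at week 1, and 3 of 17 higher at week 3 than at week 2. The members differed in this course. Camp (1.57 then 0.21) and Ltf (1.99 then 0.02) as deposited were not called after week 2 (adjusted p = 0.201 and 0.918), while Chil3 (3.25 then −1.50), Lcn2 (2.57 then −1.28) and Retnlg (2.63 then −1.30) fell after week 2. Ngp stood between, with a step of 2.48 to week 2 (adjusted p = 5.02e-06) and −0.47 after it (adjusted p = 0.0236). The all-gene median as deposited moved by −0.395 in Tet-off mice after week 2. The rescaled medians of Ltf were 6.07, 17.0 and 38.9 TPM at weeks 1, 2 and 3 in Tet-off mice, higher again after week 2. Those of Chil3 were 28.9, 204 and 142 TPM, lower after week 2. By week 4, as deposited, with 2023 of 10041 genes higher than at week 1 (20.1%) and 182 lower (1.81%) in Tet-off mice and 1335 higher (13.3%) and 1 lower (0.00996%) in controls, the Tet-off steps from week 1 were 2.90 for Ngp (adjusted p = 8.07e-09), 2.62 for Camp (adjusted p = 2.48e-08) and 2.55 for Ltf (adjusted p = 4.01e-07).

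Platelet genes took another course, with the deposited fall lying after week 2. Selp had a step of 0.00 to week 2 (adjusted p = 0.987) and −1.13 after it (adjusted p = 0.000225), and Vwf 0.17 (adjusted p = 0.271) and −0.99 (adjusted p = 0.000379). Selp held 2.09 to 84.0 TPM, median 53.0 TPM, in Tet-off blood at week 2, and 2.90, 2.17 and 2.25 TPM in the controls. At week 0 it held 0.831 to 36.8 TPM, median 4.65 TPM, in Tet-off mice and 3.20, 8.95 and 2.97 TPM in the controls, so Tet-off and control ranges overlapped before induction. Rescaled, the platelet list fell in both intervals in Tet-off mice, with medians of −0.55 and −0.42, and moved by −1.18 and then 0.46 in controls. By week 4 the deposited Selp step from week 1 was −0.28 (adjusted p = 0.0493) and that of Pde5a −0.32 (adjusted p = 0.0139). That of Vwf was −0.11 (adjusted p = 0.373). Most of the week 3 fall of these 3 genes was thus not seen at week 4. With week 4 in place of week 3, 13 named genes lost their deposited call in limma, Vwf among them. Others were P2ry12 (−0.20, adjusted p = 0.203), Cd226 (−0.31, adjusted p = 0.06) and F13a1 (−0.05, adjusted p = 0.704). T cell genes had their rescaled fall in the first interval, with list medians of −0.63 and 0.00 in Tet-off mice and −0.11 and −0.19 in controls. Haemoglobin genes moved by −1.24 and 1.02 in Tet-off mice and by −1.28 and −0.04 in controls on the same scale. Haemoglobin thus moved opposite to the secondary granule list in both intervals in Tet-off mice, and opposite to the platelet list after week 2; its part in these courses was not tested.

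**Figure D4:**
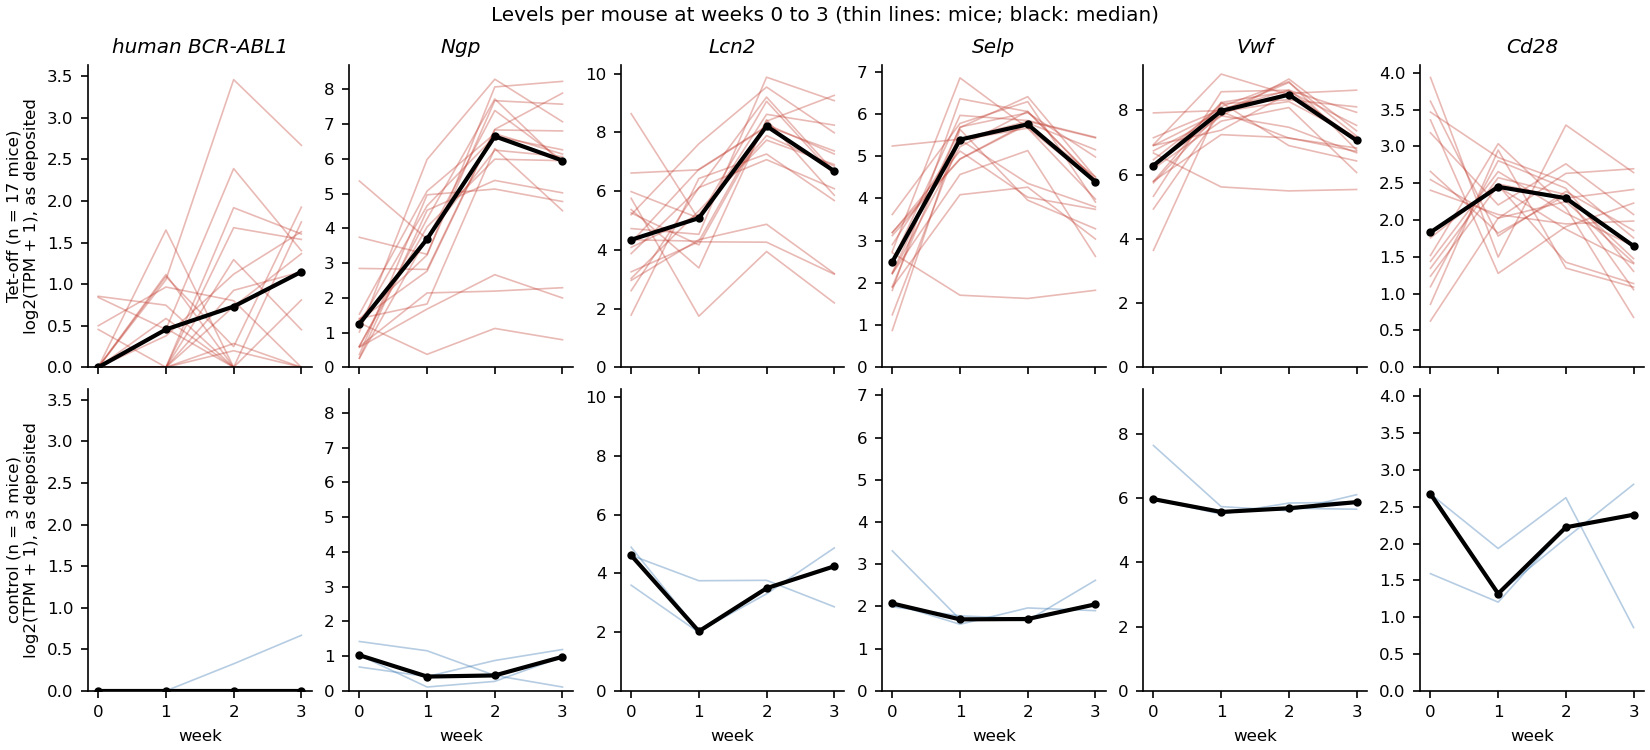
Levels of the transgene and of leading genes (vertical axis, log2 of TPM + 1, as deposited) at weeks 0 to 3 (horizontal axis) in each mouse (thin lines), with the group median in black, Tet-off above control. Ngp medians in Tet-off blood are 1.38, 11.9, 99.3 and 60.9 TPM at weeks 0, 1, 2 and 3, while no control library exceeds 1.68 TPM.

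The 3 cohorts had the same handling up to week 3 and served as a check on each other. A limma F test of equal steps in CML, TOTO and TKI mice passed for 0 of 10005 genes as deposited (779 genes, 7.79%, at an unadjusted p below 0.05) and for 6 genes (0.06%) rescaled (15.1% unadjusted); without CML mouse 541 the deposited count was 68. The cohorts were spread unevenly over batches, with no TKI mouse in batch 2021_E, so cohort and batch cannot be told apart in full. The rescaled Ngp step averaged 1.58 in CML, 2.09 in TOTO and 1.87 in TKI mice, and the deposited Selp step −0.94, −0.86 and −1.45. Rescaled, the Selp step averaged −1.56 in CML, −1.78 in TOTO and −0.89 in TKI mice. For Vwf the means were −0.59, −0.72 and −1.06 as deposited and −1.26, −1.67 and −0.48 rescaled. The platelet fall of TKI mice was thus the largest as deposited and the smallest rescaled for both genes. Batch means of the granule steps were spread more widely than cohort means. The rescaled Ngp step averaged 1.61 in batch 2021_E, 2.26 in 2022_A and 1.03 in 2022_B, and Camp 0.84, 2.06 and 1.02. Batch 2021_E held 2 Tet-off mice. The 2022_B and CML means include the mouse labelled CML 487, whose rescaled steps were 0.04 for Ngp and 0.044 for Camp.

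Whether mice with a larger transgene step had larger gene steps was asked for 4 genes over 17 Tet-off mice on rescaled values, with 100000 permutations and Benjamini-Hochberg adjustment over the 4. On rescaled values Mcpt8, a basophil protease, gave Pearson r = 0.597 (permutation p = 0.0111, adjusted p = 0.0443) and Spearman rho = 0.44 (permutation p = 0.0765, adjusted p = 0.0967). Its r was 0.194 without TKI mice 512 and 502, the farthest from the median transgene step, so on rescaled values the relation rests on those mice. As deposited Mcpt8 gave r = 0.706 (permutation p = 0.00174, adjusted p = 0.00696), and r = 0.631 without the same 2 mice. The other 3 genes also passed as deposited, with r = 0.575 for Ngp (adjusted permutation p = 0.033), 0.534 for Ltf (0.0365) and 0.49 for Cish (0.0459), a scale on which the all-gene median differed between mice. The adjusted permutation p of Mcpt8 was 0.0627 when the mouse labelled CML 487 was left out. Ngp gave r = 0.389 (permutation p = 0.122, adjusted p = 0.21) and rho = 0.416 (permutation p = 0.0967, adjusted p = 0.0967), with r = 0.37 without those 2 mice. Ltf gave r = 0.358 (permutation p = 0.158, adjusted p = 0.21) and rho = 0.45 (permutation p = 0.071, adjusted p = 0.0967), with r = 0.519 without them. Cish, a feedback inhibitor induced by STAT5, gave r = 0.219 (permutation p = 0.408, adjusted p = 0.408) and rho = 0.427 (permutation p = 0.0885, adjusted p = 0.0967), with r = 0.111. Within batch 2022_A, the one batch with at least 6 Tet-off mice, r was 0.568, 0.534, 0.656 and 0.462 for Ngp, Ltf, Mcpt8 and Cish over 10 mice, each with an adjusted permutation p of at least 0.153. The transgene row was at 0 in several mice at both visits, which limits these relations.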

How the data were processed

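RNA of mouse blood was sequenced after ribosomal RNA depletion with read strand kept, per the labels' protocols. The authors deposited 1 table of TPM for 14605 genes and 298 libraries; STAR, Salmon and GRCm39 are named per the submitters' processing notes, and versions are not given in the sources used here. TPM keeps no depth, so the depth per library is unknown and no counting interval is given. Among the deposited genes, 14604 reached 1 TPM in at least 5 libraries, and each library summed to 989100 to 999879 TPM. Genes were named by match to GENCODE identifiers (14537 matched).

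Columns were tied to mice and weeks by the labels, and 0 columns were left unmapped. Each mouse's difference of log2(TPM + 1), week 3 minus week 1, was fitted with limma 3.58.1 (R 4.3.3, lmFit, eBayes with a trend; all 20 mice, one term for Tet-off and one for control) over the 10005 genes with a mean of at least 1 TPM in the 40 libraries, and p-values were adjusted by Benjamini-Hochberg. Fold changes are on the log2(TPM + 1) scale, which understates the change of low genes. Rescaled values were divided by median-ratio size factors over 12847 genes above 0 in all 40 libraries. The transgene used exact sign-flip and permutation tests, and correlations 100000 permutations (Python 3.11.15, numpy 2.4.6, scipy 1.17.1). The fit was tested on simulated data. Their noise was drawn separately for each gene and library, with no shift shared by a whole library. That test therefore does not cover the shifts of the all-gene median seen here. No 2 libraries held identical values. Sequences came from the RefSeq tables.

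The labels give a mouse identifier, so week 1 and week 3 are paired by animal; deviations of the same mouse from its group means correlated at 0.175 on average (−0.278 to 0.7, above 0.1 in 10 of 17), against −0.00631 between mice. The mice and the 27 gene lists were chosen with earlier results of these data known. Genes were named by rule: the 8 largest rises and falls past the threshold on each scale with a mean of at least 5 TPM and 1 sign in at least 80% of Tet-off mice, per list the 2 to 4 genes of smallest p, and the transgene with Bcr and Abl1; further list members named beside these were chosen after their values were seen. Some genes are not reported here. Alternatives were the rescaling, pseudocount 0.1, other filters, no mouse term, batch or sex as a term, other weeks, removal of haemoglobin, erythroid and Rn7s2 transcripts, and leaving out each mouse.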

Additional observations from a re-analysis of the deposited data

Results flagged for a closer look

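Of the values looked at by cohort (18 groups of 4 to 7 mice), 0 held a mouse set apart from the others by its gap, where chance flags about 1 group in 20. In the rescaled values 6 genes had steps that differed between the CML, TOTO and TKI cohorts by limma's F test, although the cohorts were handled alike at these weeks. In all 6 the TKI mean was the lowest. Clec2d, a lectin-like ligand, had mean steps of −0.07 in CML, 0.03 in TOTO and −1.14 in TKI mice, and −0.31 in controls (adjusted p = 0.00299). Btg2, an antiproliferative early response gene, had 0.43, 0.45 and −0.32, and 0.16 in controls (adjusted p = 0.0384). For C230096K16Rik the means were 0.45, 0.40 and −0.68, and 0.27 in controls (adjusted p = 0.00299). Zfp866 had 0.09, 0.22 and −0.48, and 0.01 in controls (adjusted p = 0.0424). Zfp1001 had 0.18, 0.27 and −0.26, and −0.05 in controls (adjusted p = 0.0384). Kbtbd11 had 0.11, −0.08 and −0.58, and 0.03 in controls (adjusted p = 0.0461). TKI mice lie in batches 2022_A and 2022_B and none in 2021_E, so cohort and batch cannot be told apart in full.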

How the results depend on the processing

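The count of 285 genes in the Tet-off step became 4095 rescaled, 156 with no replicate block (33 higher, 123 lower), 2562 without haemoglobin, erythroid and Rn7s2 transcripts, 5753 with week 2 in place of week 1, 2205 with week 4 in place of week 3, and 8289 with week 2 in place of week 3, an alternative chosen after seeing the data; without single mice it ran from 172 to 436. The difference between arms was 0 genes on both scales. It became 1 with no filter on low values (Gm8034) and 2 without haemoglobin, erythroid and Rn7s2 transcripts (Gm8034 and Pde6h). Rescaled with batch as a term it became 1 (2010309G21Rik), and it stayed at 0 without any single mouse. Its unadjusted count (limma p below 0.05) did depend on control mouse 490. Without that mouse, 2 controls were left and 5845 of 9974 genes reached it as deposited and 1414 rescaled. With all mice these counts were 285 and 410. The control step, 0 genes, became 1 with no filter, 1336 with week 4 in place of week 3, and 0 to 7227 without single mice, the last without mouse 490. Cohort differences, 0 genes, became 6 rescaled and 0 to 68 without single mice. The transgene step of 0.46 ran from 0.39 to 0.59 without single mice, and minus the control step it became −0.05 with pseudocount 0.1. The correlations of the transgene step became 0.575 for Ngp, 0.534 for Ltf, 0.49 for Cish and 0.706 for Mcpt8 as deposited, where all 4 passed (adjusted permutation p = 0.033, 0.0365, 0.0459 and 0.00696) against Mcpt8 alone rescaled, and Mcpt8 was 0.591 without the mouse labelled CML 487 (adjusted permutation p = 0.0627). The cause of these moves was not tested.

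With week 2 in place of week 1 these steps reversed: Cd177 −0.87, Cd22 −0.52, Chil3 −1.50, H2-Aa −0.48, Hdc −0.90, Hk3 −0.75, Il1r2 −1.72, Junb −0.79, Lcn2 −1.28, Ly6g −0.72, Mcl1 −0.60, Mmp25 −0.76, Ngp −0.47, Osm −0.86, Pim1 −0.51, Retnlg −1.30, Rpl5 −0.46, Saa3 −1.20 and Stfa2l1 −1.38. With week 2 in place of week 3 these reversed: Epor 0.30, F13a1 0.25, Gata1 0.42, Gng11 0.053, H2bc4 0.087, Hk1 0.18, Itga2 0.28, Lgalsl 0.19, P2rx1 0.14, Rgs18 0.071, Selp 0.003 and Vwf 0.17. With no replicate block 8 named genes lost their call, Selp among them (adjusted p = 0.0542). The unknown depth limits low genes, the transgene first.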
